A study of Lates calcarifer with 24 samples.

Results

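The 40 liver transcripts described here were chosen by their measured values, as those highest in juvenile Asian seabass (Lates calcarifer) given Feed D. Each array carried 60080 probes besides controls, 1 for each transcript of the design, and 40 of the 60065 probes considered met the rule (0.0666%). In the deposited log2 values the lowest of the 4 Group D arrays had to exceed the highest of the 20 arrays of Groups B, C, E, F and A. The signal also had to be well above background on all 4 Group D arrays. At least 1 array of Group B, C, E or F had to lie at or below the highest Group A array, and the 15 probes that the study paired with a gene symbol were left out. The values of Group D relative to every other group therefore chose the members and are given as a description without a test.

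All fish were juvenile siblings of a single cross between brooders selected for growth, 107 days post-hatch at the start and 168 days post-hatch when their livers were taken. For 61 days Group D received the commercial pellet labelled Feed D, Groups B, C, E and F received 4 other commercial pellets labelled by the same letters, and the control Group A received frozen baitfish. Each group had 4 arrays, labelled as the livers of 4 fish, and p-values measure the spread between these arrays. The study's methods describe RNA from more fish per feed than there were arrays and do not say how arrays and fish correspond. By the study's methods every feed was given in several canvas enclosures spread over the same tanks, and the labels do not tie a fish to its enclosure. The group letters are those of the sample labels. It is not settled that they are the letters of the study's text, and for that reason no feed composition or ration is set beside the values. In its text the study left its Groups E and F out of the detailed analysis for technical reasons. All labelled groups were used here.

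The liver is the main organ of lipid, amino acid and carbohydrate metabolism in teleosts, and it makes most of the proteins of the blood plasma. Many of its transcripts follow the diet, among them those for fatty acid and sterol synthesis, for amino acid breakdown and for detoxification. On a one-colour array, labelled RNA binds to oligonucleotide probes fixed on glass and the brightness of a spot follows the amount of its target. The brightness also depends on the probe itself, so levels were compared between arrays for 1 probe and never between probes. In whole liver, a change in the share of 1 cell type and a change in RNA per cell cannot be told apart.

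The array design gives its transcripts serial numbers, and 0 of the 60080 matched an entry among the 32906 genes of the RefSeq table used here. The members therefore have no gene names, and neither their functions nor shared pathways are described. Tissue identity was checked on 2 of the probes with a symbol. serpina1, which encodes the plasma protease inhibitor alpha-1-antitrypsin, read between 16.7 and 18.3 on the log2 scale over the 24 arrays. lbp, the lipopolysaccharide-binding protein of the acute phase, read between 8.22 and 10.9. Both transcripts are typical of hepatocytes and were well above background on all 24 arrays. Brightness depends on the probe, so the levels themselves are no measure of tissue identity. Lists of markers for other cell types could not be read, since the probes have no symbols. Of the 15 probes with a symbol, 3 belong to genes known from immune cells: acp5a, the tartrate-resistant acid phosphatase of macrophages, tnfsf14, a cytokine, and tlr8a, a receptor for foreign RNA. acp5a averaged 8.27 ± 0.17 in Group D, 7.28 to 7.58 in Groups B, C, E and F and 6.72 ± 0.03 in Group A (SD, n = 4 each). tnfsf14 averaged 7.93 ± 0.25 in Group D, 7.13 to 7.29 in the 4 other pellet groups and 6.80 ± 0.20 in Group A. tlr8a averaged 7.24 ± 0.15 in Group D, 6.71 to 7.17 in the 4 other pellet groups and 6.40 ± 0.09 in Group A. Signals were well above background on 21 arrays for acp5a, 21 for tnfsf14 and 15 of 24 for tlr8a. These 3 probes thus had the same order of Group D, the other pellet groups and Group A as most members described below. lbp had it too, with means of 10.39 in Group D, 9.23 to 9.80 in the 4 other pellet groups and 8.33 in Group A. The order also held for fads2, tm7sf2, elovl1b, gnpda1 and pip4k2aa. It did not hold for serpina1, aldh1l1, p4hb, ssr1, elovl5 or shmt2. serpina1 averaged 16.97 in Group D, 17.28 to 17.98 in the 4 other pellet groups and 18.05 in Group A. aldh1l1, p4hb and ssr1 also had their lowest group mean in Group D. Most of the 15 were chosen by the study on these same arrays, so the order among them is no independent evidence. The part of immune cells in the results was not tested.

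Between 20.4% and 36.0% of an array's spots gave a signal well above background. Slide 1 was the dimmest of the 3 slides, with a 75th percentile of the scanner's processed signal of 22.2 to 32.9 per array, against 42.4 to 80.2 on slides 2 and 3. Slide 1 held 1 Group D array and 7 of the others, slide 2 held 2 and 6, and slide 3 held 1 and 7. When each deposited column was set against the scanner output, 21 of 24 followed the array of their own label, with a correlation of at least 0.948 over the 7963 probes detected above background on all 24 arrays. The columns labelled Group F replicates 2, 3 and 4 followed the scanner output of other Group F arrays, those labelled 4, 2 and 3. All 3 exchanges were within Group F, so no group mean was affected. Slides of the deposited values were taken from the matching scanner output. Deposited values printed below keep the labels of their columns. Fits that left out 1 array went by the labels of the scanner output.

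The rule was met in steps. In 51 probes the lowest Group D array exceeded all 20 others, and 48 of these were well above background on the 4 Group D arrays. The condition on Group A removed 5 of the 48, which had every array of Groups B, C, E and F above all arrays of Group A and of which 1 had a symbol. A further 3 were removed because they carry a symbol. The same first conditions, applied to each of the other groups, were met by 1 probe for Group B, 0 for Group C, 4 for Group E, 2 for Group F and 32 for Group A. Group D and the baitfish group thus had the most transcripts above all other arrays, and these counts are a description of the same arrays.

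Most members lay close to the limit of the rule. The margin, meaning the lowest Group D value minus the highest value of the other 20 arrays, ran from 0.0025 to 0.453 log2 with a median of 0.062. It was under 0.05 in 17 members, under 0.1 in 27 and under 0.2 in 34. Just inside the limit, margins were 0.0025, 0.0026 and 0.0027, and just outside it 3 probes had margins of 0, -0.0067 and -0.0079. In all, 22 probes missed the rule by up to 0.05. The spread between arrays of 1 group (pooled SD of the 6 groups) had a median of 0.24 over the members, and the margin exceeded the member's own SD in 4 of the 40. Replicate 1 of Group D, the array on slide 1, held the lowest Group D value in 23 members, and an array of slide 1 held the highest of the other values in 23. Without that replicate 184 probes met the rule, and without replicate 3 of Group D 93 did. All 40 members were among them in both, as they must be, since leaving out a Group D array only loosens the rule.

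**Figure D1:**
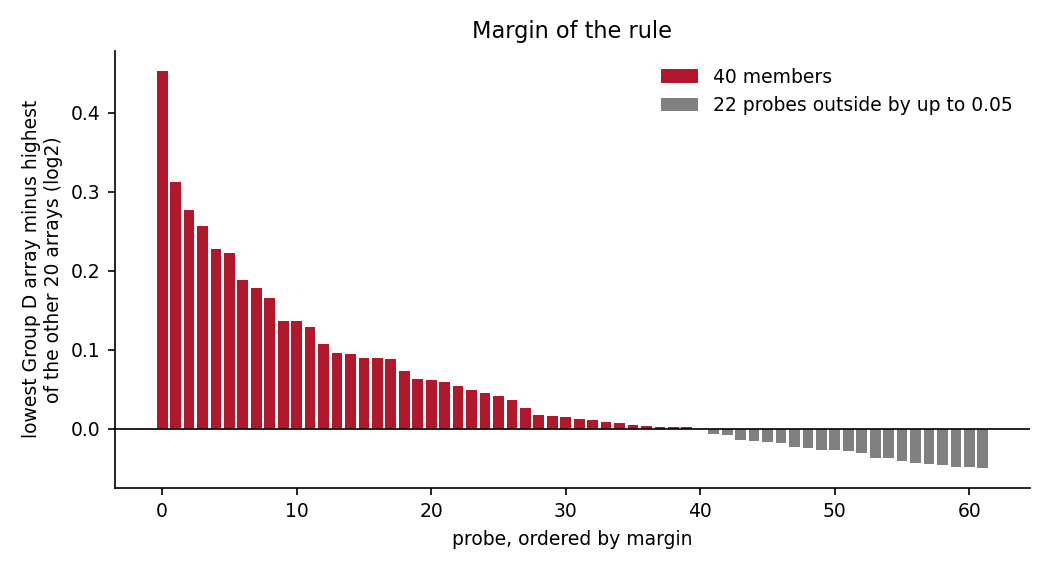
Margin of each probe, the lowest Group D array minus the highest of the other 20 arrays in deposited log2 units, with probes ordered by margin. The 40 members (red) range up to 0.453 and 17 of them lie under 0.05, while the 22 probes in grey missed the limit by up to 0.05.

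Group means stood further apart than the single arrays, as they must under the rule. The Group D mean exceeded the next highest group mean by 0.25 to 1.49 log2, with a median of 0.53. This difference was larger than the pooled SD of the same member in 39 of the 40 members and larger than 2 pooled SD in 24. The rule selected for a high Group D and a narrow spread in it, so these counts describe the choice. Within Group D, the SD of the 4 arrays had a median of 0.14 over the members and ran from 0.031 to 1.67. Medians in the other groups were 0.22 in Group B, 0.16 in C, 0.24 in E, 0.21 in F and 0.23 in A. A rule on the lowest of 4 values favours probes with a small spread in Group D, so the narrow spread is a property of the choice.

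The median of the 40 members shows the same step on each array. It was 8.55, 8.57, 8.50 and 8.43 on the Group D arrays and 7.89, 8.00, 7.63 and 7.69 on those of Group B. Group C had 7.60, 7.71, 7.77 and 7.55, and Group E had 7.86, 7.46, 7.69 and 7.61. Group F had 7.39, 7.50, 7.80 and 7.44, and Group A had 7.49, 7.18, 7.15 and 7.22. The 4 Group D arrays lay above all others, as the choice of members requires. The rule bears on the other groups as well, since it left out probes with every array of Groups B, C, E and F above Group A. In the 40 that remained, every array of Groups B and C had a median above those of all 4 Group A arrays. Replicate 1 of Group A overlapped with 1 array of Group E and 2 of Group F, and the other 3 Group A arrays lay below all of them.

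**Figure D2:**
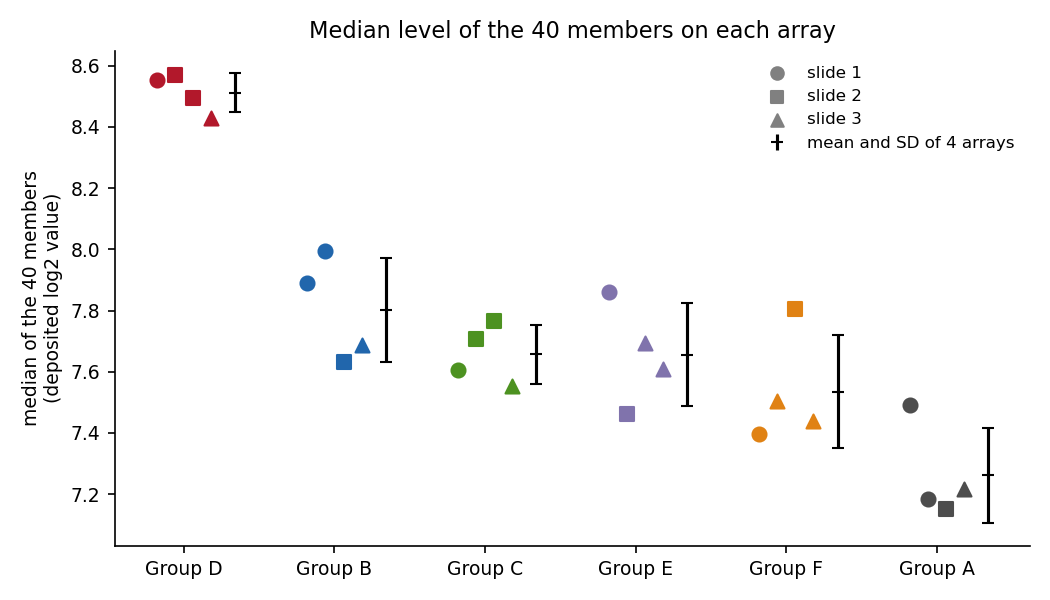
Median deposited log2 value of the 40 members on each array, by feed group, with the mean and SD of the 4 arrays beside the points and symbols for the slide. Group D arrays lie between 8.43 and 8.57 and Group A arrays between 7.15 and 7.49, and the other pellet groups between 7.39 and 8.00, where 1 array of Group E and 2 of Group F fall within the range of Group A.

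The choice of members fixes that Group D was highest on each slide, but not by how much. On slide 1, the Group D array exceeded the highest of the 7 others by a median of 0.16 log2 over the members, and by 0.0025 to 0.65. On slide 2 the lower of the 2 Group D arrays exceeded the 6 others by a median of 0.32, and on slide 3 the Group D array exceeded the 7 others by a median of 0.46. Against the Group A arrays of the same slide, Group D was higher by medians of 0.79, 1.15 and 1.02 on slides 1, 2 and 3. The smallest such difference of any member was 0.26. The gap was thus narrowest on slide 1, the slide with the dimmest arrays. The part of the slide in this was not tested.

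Against the baitfish group, the 20 members well above background on all 24 arrays were higher in Group D by 0.58 to 2.25 log2 with a median of 1.15, and 12 of them reached a 2-fold difference. Over all 40 members the deposited means differed by 0.55 to 2.63 with a median of 1.02, but 12 of the 40 were well above background on no Group A array, so that their difference is not a measured size. Group D exceeded Group B by a median of 0.57, Group C by 0.63, Group E by 0.63 and Group F by 0.72. The deposited scale is compressed for dim probes, since on quantile-normalized scanner intensities the median of Group D minus Group A over the same members was 1.75 rather than 1.02. The next highest group mean was that of Group B in 18 members, E in 10, C in 6 and F in 6. Group A was never next and had the lowest mean in 34 members, with Group F lowest in 3, E in 2 and C in 1.

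**Figure D3:**
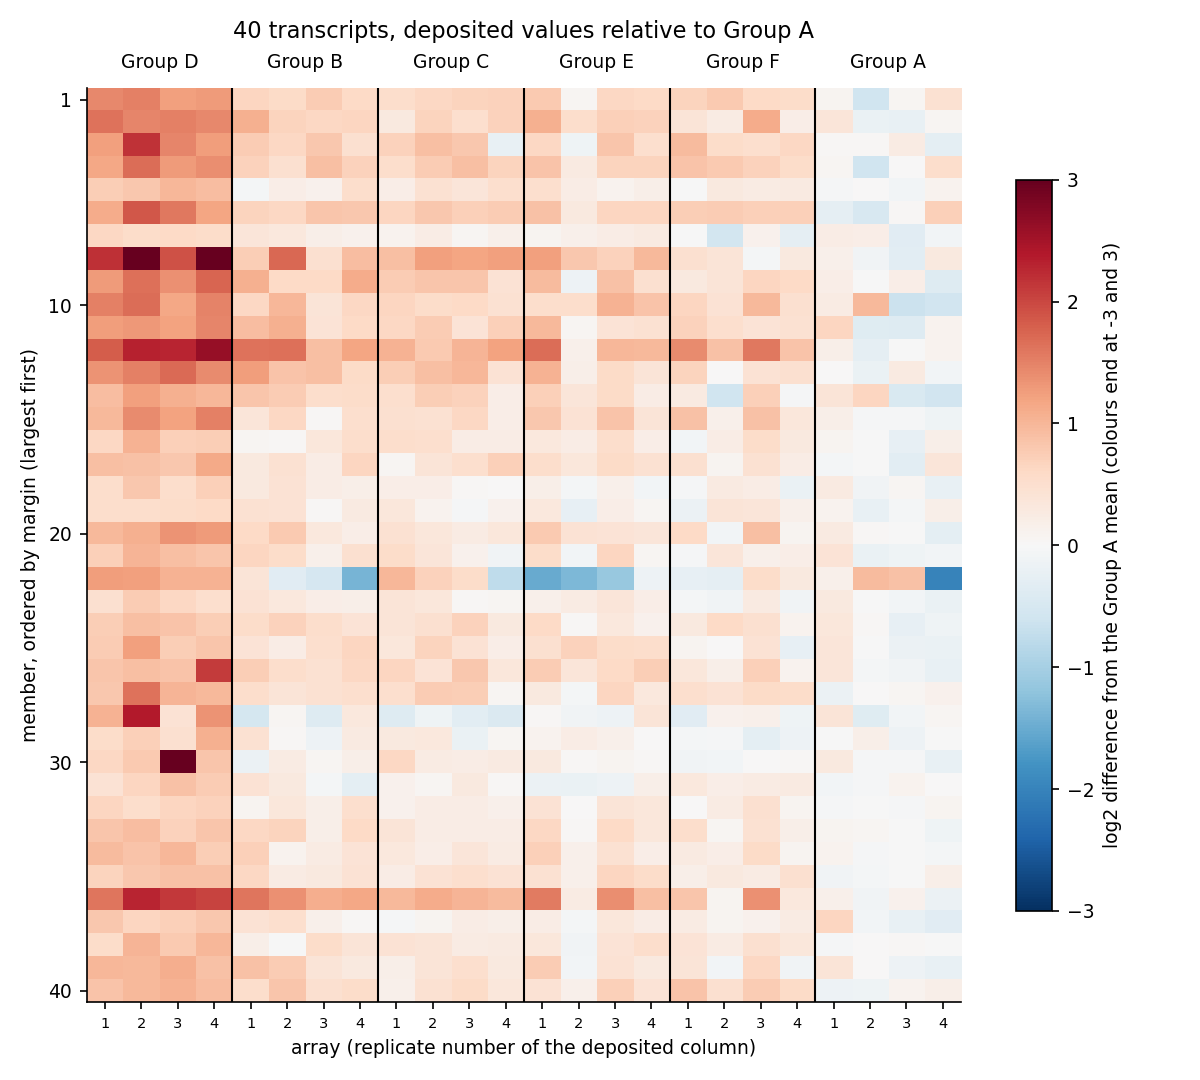
Deposited log2 value of each of the 40 members on each of the 24 arrays, minus the member's Group A mean, with members ordered by margin and arrays by feed group. Group D arrays are above 0 throughout, by 0.55 to 2.63 as group means, and most fields of Groups B, C, E and F are above 0 by less.

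Most members also had higher means in the other pellet groups than under baitfish. The mean of Group B was above that of Group A in 38 members, that of C in 39, of E in 38 and of F in 36, and all 4 means were above Group A in 34. Of all probes, 49.8% were above Group A in Group B, 49.4% in C, 49.2% in E and 49.5% in F. Median differences from Group A were 0.46 for Group B, 0.39 for C, 0.42 for E and 0.30 for F. Averaged over the 4 groups, the difference from Group A was 38.6% of that of Group D at the median. In the 20 members well above background on all 24 arrays, where levels are measured on every array, it was 42.0%. The rule places Group D above every other array, so the choice itself keeps both shares below the full step of Group D. All 4 arrays of Group B lay above all 4 of Group A in 15 members, against 2.49% of all probes. The counts were 14 for Group C (2.27% of all probes), 9 for E (2.32%) and 10 for F (1.82%). The rule had left out probes in which every array of the 4 groups was above Group A, so these counts are held down by the choice. The shares cover all probes, of which 13.3% were well above background on all 24 arrays. They were not taken among such bright probes alone, so part of the contrast may come from brightness.

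**Figure D4:**
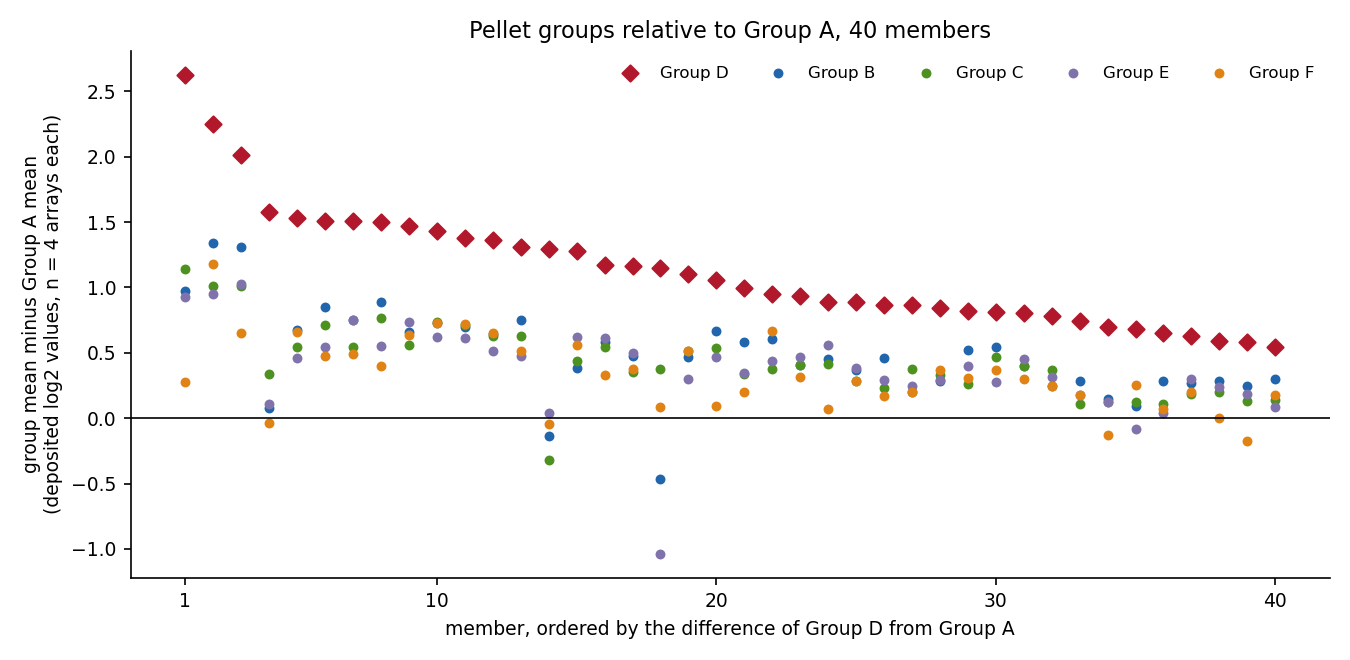
Group mean minus the Group A mean in deposited log2 units for each of the 40 members, ordered by the difference of Group D (diamonds), with 4 arrays per mean. Group D runs from 0.55 to 2.63, and the means of Groups B, C, E and F lie below it and mostly above 0, in 34 members all 4 of them.

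The difference of the other pellet groups from baitfish was tested with linear models (limma) on quantile-normalized scanner intensities, with p-values adjusted by Benjamini-Hochberg over all 60080 probes. A transcript was called higher where its change reached 2-fold and its adjusted p was below 0.05. Of the 40 members, 4 were called higher in Group B than in Group A (0.191% of all probes were), 1 in Group C (0.0749%), 0 in Group E (0.0233%) and 1 in Group F (0.02%). No member was called lower in any of these comparisons, where 30, 16, 2 and 7 of all probes were. The spread in these fits includes that of Group D, which the rule selected to be narrow. The rule also held every array of Groups A, B, C, E and F below the lowest Group D array. The choice thus bears on the tested values too, and leaving out Group D does not undo this. Without the 4 Group D arrays, a setting chosen after seeing the data, 0 members were called in each of the 4 comparisons, where limma called 0.0483%, 0.0433%, 0.0183% and 0.02% of all probes higher in Groups B, C, E and F. The methods' t-test was used in the study at an unadjusted p. Taken so, it gave 22 members higher in Group B (2.62% of all probes), 23 in C (2.66%), 17 in E (2.79%) and 14 in F (1.96%). With the adjustment and the 2-fold limit added, it called 0 members in each of the 4 comparisons, and of all probes it called 6 higher in Group B, 4 in C, 0 in E and 3 in F. For Group E, 26 members had an unadjusted p below 0.05 in limma and all of them were higher. All comparisons share the Group A arrays, so their counts are not independent. Leaving out 1 array at a time gave 0 to 8 calls for Group B, 0 to 2 for C, 0 to 6 for E and 0 to 2 for F. Of all probes, the same fits called 20 to 224 higher in Group B, 13 to 80 in C, 2 to 190 in E and 8 to 27 in F.

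The mean of Groups B, C, E and F against Group A gave 8 members called higher by limma, against 0.414% of all probes. It gave 0 members called lower, against 91 of all probes. The count called higher was 1 with the deposited values (0.0949% of all probes) and 1 with normexp background correction (0.0882%). It was 2 with scaling to the 75th percentile (0.206%) and 2 without the arrays of slide 1 (0.208%). Without the 4 Group D arrays it was 6, against 0.283% of all probes. With dim probes left out, a filter that all members pass through Group D, it was 11, against 4.36% of the remaining probes. The count fell to 1 without replicate 3 of Group A (0.205% of all probes). It fell to 4 without replicate 2 (0.268%) or replicate 4 of Group A (0.389%). Over the 8 members the fitted changes were 1.09 to 2.07 log2, with adjusted p-values of 0.010 to 0.0495. Of the 8, 4 were well above background on no Group A array, so that their change has no measured size. The 2 called members that were well above background on all Group A arrays had fitted changes of 1.09 and 1.49 log2. Across Groups A, B, C, E and F, the F-test of limma called 0 members at an adjusted p below 0.05 (0.0766% of all probes). It gave 27 members an unadjusted p below 0.05, against 6.47% of all probes.

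At an unadjusted p below 0.05 in limma, 32 members were higher in Group B than in Group A, where 4.41% of all probes were. There were 28 in Group C (3.87%), 26 in Group E (4.54%), 23 in Group F (3.5%) and 32 for the mean of the 4 groups (4.27%). In none of these comparisons was a member lower, where 2233, 1786, 2102, 1935 and 3327 of the 60080 probes were lower. For 40 members these shares are small, so 0 lower is close to them. These counts also draw on the spread of Group D and on values that the rule capped in every group tested. Without the 4 Group D arrays they were 29 for Group B (4.12% of all probes), 27 for C (3.68%), 25 for E (4.18%), 21 for F (3.36%) and 29 for the mean (4.07%). Again 0 members were lower, against 2008, 1614, 1885, 1745 and 2799 of all probes. The median fitted difference from Group A was 0.85 log2 in Group B, 0.78 in C, 0.64 in E and 0.68 in F. Over all probes the medians of these fits were close to 0, the farthest being -0.014 in Group F. For the mean of the 4 groups, the fitted difference was above 0 in 38 members (52.5% of all probes) and below 0 in 2. Its median over the 20 members well above background on all arrays was 0.56. Most probes of the array are dim, and low p-values were more frequent among bright ones. Among the 7963 probes well above background on all 24 arrays, 10.4% had an unadjusted p below 0.05 and a higher level in Group B than in Group A without the Group D arrays, with 9.59% in C, 11.2% in E, 8.41% in F and 12.5% for the mean. Of the 20 members among these probes, 16, 12, 12, 9 and 15 were so.

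Detection differed between the groups for the dimmer members. All 40 were well above background on the 4 Group D arrays, as the rule requires. In Group B 29 members were so on all 4 arrays, in C 28, in E 29, in F 28 and in A 20. On no array of the group were 1 member in B, 2 in C, 2 in E, 1 in F and 12 in A. For these 12, only an approximate lower limit of the difference can be given. On each Group A array it used the dimmest signal that the scanner's software still set above background, or the probe's own value where that was higher. An undetected transcript need not lie below that signal, so the limits are not strict minima. On quantile-normalized scanner intensities, these limits for Group D over Group A ran from 1.30-fold to 5.44-fold in the 12 members, with a median of 2.02-fold. These limits do not hold for the compressed deposited scale. Over the 20 arrays outside Group D, 20 members were well above background on all, 9 on 15 to 19 and 11 on 2 to 12.

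Several checks of the spots bear on the members. They occupy 50 spots, of which 14, 5, 17 and 14 lie in the 4 equal parts of the array by row and column, and no member had a saturated spot on any array. The scanner's software marked 5 of their spots as outliers over all arrays, 1 of them on a Group D array. Among the members, 2 have 6 spots each on an array. The SD of the 6 spots of 1 array had a median of 0.040 log2 for one and 0.058 for the other, against margins of 0.060 and 0.26. Over 270 repeated probes the median SD between spots was 0.063. On quantile-normalized scanner intensities, 34 of the 40 members kept all Group D arrays above all others, and in the other 6 the overlap was at most 0.11 log2. The member with a spot SD of 0.040 was 1 of these 6. These are the same arrays on another scale, so the count is no independent check.

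SBRGG_11453 (probe CUST_9394_PI428621111) had the largest margin, 0.45 log2. It read 16.29, 16.37, 16.09 and 16.12 on the Group D arrays, and 15.50, 15.43, 15.62 and 15.44 on those of Group B. Group C read 15.38, 15.48, 15.53 and 15.54, and Group E read 15.64, 14.92, 15.47 and 15.44. Group F read 15.53, 15.64, 15.44 and 15.41, and Group A read 14.93, 14.26, 14.92 and 15.31. All 4 Group D arrays stood apart from the rest, Groups B, C and F overlapped each other closely, and their 12 arrays lay above all 4 Group A arrays. Replicate 2 of Group E alone fell within the Group A range. Means were 16.22 ± 0.13 in Group D and 14.85 ± 0.44 in Group A (SD, n = 4 each). In limma, Groups B, C, E and F together were 0.58 log2 above Group A (SE 0.14, adjusted p 0.053), which missed the threshold. The difference was 0.27 without slide 1 (adjusted p 0.62) and 0.39 without replicate 2 of Group A (adjusted p 0.17).

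SBRGG_15220 (probe CUST_4371_PI428621111) followed, with a margin of 0.31. It read 8.61, 8.45, 8.51 and 8.42 on the Group D arrays, and 8.06, 7.66, 7.61 and 7.62 on those of Group B. Group C read 7.29, 7.66, 7.49 and 7.69, and Group E read 8.05, 7.51, 7.71 and 7.69. Group F read 7.38, 7.24, 8.11 and 7.19, and Group A read 7.35, 6.80, 6.77 and 7.04. Single arrays of Groups B, E and F lay near 8.1, above the rest of their groups, and only 2 of the 4 Group A arrays were well above background. Means were 8.50 ± 0.08 in Group D and 6.99 ± 0.27 in Group A (SD, n = 4 each). Groups B, C, E and F together were 1.19 log2 above Group A in limma (SE 0.23, adjusted p 0.020), and this was 1 of the 8 calls. The adjusted p was 0.054 with the 75th percentile, 0.054 with normexp, 0.084 without slide 1, 0.063 without replicate 2 of Group A and 0.097 without replicate 3 of Group A, so the call was lost in these settings. It was also lost with the deposited values, where the difference was 0.63 log2 (adjusted p 0.042) and below 2-fold, and with normexp the difference was 0.56 log2. Without the Group D arrays the adjusted p was 0.047.

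SBRGG_32270 (probe CUST_48014_PI428621111) had the lowest fitted mean of the 4 other pellet groups relative to baitfish among members well above background on all Group A arrays. It read 19.06, 19.04, 18.86 and 18.86 on the Group D arrays, and 18.20, 17.48, 17.30 and 16.41 on those of Group B. Group C read 18.81, 18.51, 18.37 and 17.06, and Group E read 16.31, 16.46, 16.66 and 17.66. Group F read 17.56, 17.55, 18.37 and 18.09, and Group A read 17.96, 18.77, 18.69 and 15.81. The 4 Group D arrays lay close together while the Group A arrays spread widely, and the highest arrays of Groups C and A came close to Group D. On quantile-normalized scanner intensities the separation was lost, since the lowest Group D array read 18.90 and Group C replicate 1 read 18.93. The mean was 18.96 ± 0.11 in Group D, 16.77 ± 0.61 in Group E and 17.81 ± 1.38 in Group A (SD, n = 4 each). Groups B, C, E and F together differed from Group A by -0.25 log2 (SE 0.42). The sign of that difference turned when replicate 2 or replicate 3 of Group A was left out, or all of slide 1.

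SBRGG_19207 (probe CUST_7968_PI428621111) was the next by the same order. It read 12.41, 12.58, 12.33 and 12.92 on the Group D arrays, and 12.31, 11.88, 11.71 and 12.13 on those of Group B. Group C read 12.16, 12.18, 11.66 and 11.92, and Group E read 11.96, 12.08, 12.001 and 11.86. Group F read 11.80, 11.82, 11.57 and 11.71, and Group A read 11.84, 12.03, 11.71 and 11.84. Groups B, C, E and F overlapped Group A throughout, and Group F had the lowest mean, 11.73 ± 0.11. Means were 12.56 ± 0.26 in Group D and 11.86 ± 0.13 in Group A (SD, n = 4 each). Replicate 1 of Group B came within 0.017 of the lowest Group D array. The 4 other pellet groups differed from Group A by 0.068 log2 (SE 0.11), with 0.12 without replicate 2 and 0.040 without replicate 3 of Group A.

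**Figure D5:**
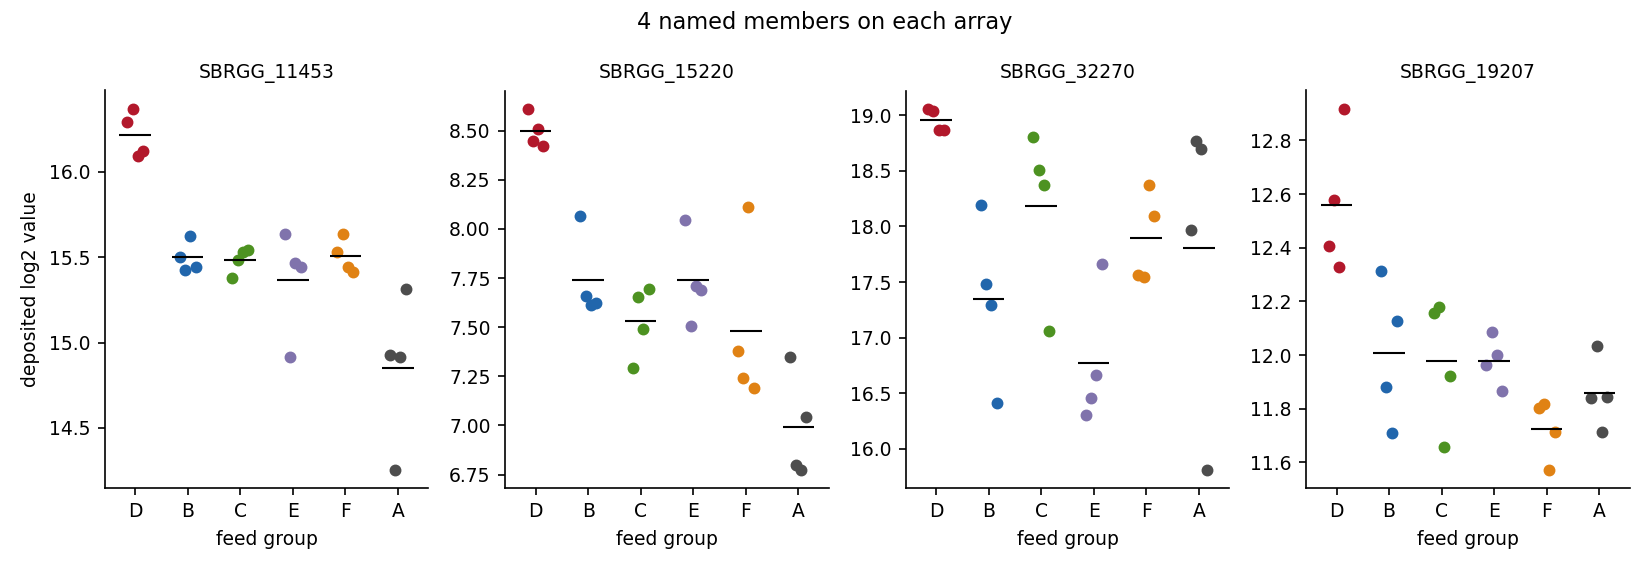
Deposited log2 values of the 4 named members on each array, by feed group, with the group mean as a line and a separate axis for each member. In SBRGG_11453 and SBRGG_15220 the groups other than D lie mostly above Group A, while in SBRGG_32270 and SBRGG_19207 they overlap it.

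The second pair was chosen for the lowest difference of the other pellet groups from baitfish, so its overlap with Group A comes from that choice and is given with no test. Over the 20 members well above background on all 24 arrays, the mean of Groups B, C, E and F lay between -22.8% and 49.8% of the way from Group A to Group D. The choice of members for a high Group D limits these shares from above.

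Some members also moved together between arrays of 1 group. Deviations from the group means were correlated over the 20 arrays outside Group D for the 20 members well above background on all arrays. The median correlation of the 190 pairs was 0.20, against 0.017 for all probes well above background on every array. Correlations ran from -0.66 to 0.94, and 17.4% of the pairs were above 0.5, against 9.11% of pairs of all such probes. The highest was between SBRGG_11453 and 1 of the members with 6 spots. These arrays share slides and normalization, so the correlations are a description only.

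Of the 15 probes with a symbol, 4 also had all Group D arrays above the other 20. They were acp5a and tnfsf14, described above, pip4k2aa, a phosphoinositide kinase, and elovl1b, an elongase of very long-chain fatty acids. The margins were 0.24 for acp5a, 0.20 for tnfsf14, 0.025 for pip4k2aa and 0.20 log2 for elovl1b. The study chose most of the 15 on these arrays, so their share of the list is no independent evidence.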

How the data were processed

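The authors hybridised liver RNA to 24 Agilent arrays in 1 colour (6 groups of 4, each array labelled as 1 fish) and extracted the scans with Feature Extraction 10.7.1.1. The deposited scanner files hold a processed, background-subtracted intensity for each spot, its median and background intensity, and yes or no flags of other kinds for a signal well above background, outliers and saturation. Processed values were deposited as log2 data, which the authors had quantile-normalized, so that every column has nearly the same distribution. The members and lists were chosen with earlier results of these data known.

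The rule was applied to the deposited log2 values, and a probe counted as well above background where more than 50% of its spots were. For the tests, processed intensities without control and outlier spots were averaged per probe, quantile-normalized and log2-transformed, and fitted by feed group over all 24 arrays with limma 3.58.1 (R 4.3.3, prior of 1.3 degrees of freedom). Group D enters these fits through the normalization and the spread, and the rule favours a narrow spread in Group D. The fits were therefore also run without the 4 Group D arrays, normalized anew. For the members the rule also caps the arrays of the other groups, which these fits do not undo. P-values were adjusted by Benjamini-Hochberg over all probes of a comparison. Named members are the 2 with the largest margin and the 2 with the lowest fitted mean of Groups B, C, E and F minus A among those well above background on all Group A arrays. In simulated data for Group B against A, over 60032 probes, the fit called 61 of 100 probes changed 4-fold and 97 of 100 changed 16-fold, 0 of them in the wrong direction, and 6 unchanged probes. The simulated noise was independent between arrays, with no slide effect and no choice of members by the rule. Changes smaller than 4-fold were not simulated, so it gives no rate of calling for the members. Array number and background limit the precision. Alternatives were the deposited values, scaling to the 75th percentile, normexp with an offset of 50, dim probes left out, outlier spots kept, slide or replicate number as a block, the methods' t-test, and leaving out 1 array at a time. Leaving out slide 1 and leaving out Group D were chosen after seeing the data. Tables were read with version 1.17.8 of data.table, with pandas 2.3.3, numpy 2.4.6 and Python 3.11.15, and plots drawn with matplotlib 3.10.9. 0 columns of the deposited table were left unmatched to a sample.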

Additional observations from a re-analysis of the deposited data

Results flagged for a closer look

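Among 30 sets of 4 arrays checked (the member median and the 4 named members in each group), 1 had an array far from the other 3. SBRGG_15220 (probe CUST_4371_PI428621111) read 8.06 in Group B replicate 1, against 7.61 to 7.66 in the other Group B arrays. The limit used, Dixon's for 4 values, is set so that chance passes it in about 1 of 20 groups. The array lay on slide 1, and the part of the slide was not tested.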

How the results depend on the processing

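Precision is limited by 4 arrays per group, by dim probes and by 3 slides of unequal brightness. Over all 35 settings of the fit, at most 1 member was lower than Group A at an unadjusted p below 0.05, in settings that left out replicate 2, 3 or 4 of Group A or replicate 4 of Group E. Members fitted below Group A, at any p, numbered 1 to 3 for Group B, 1 to 2 for C, 2 to 4 for E, 2 to 8 for F and 1 to 2 for the mean. For Group F it was 8 without the scanner output labelled replicate 2 and 4 with all arrays.

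The number of probes meeting the rule was 79 with slide means removed (26 of the 40 members among them), 0 with a margin of at least 1 log2 unit and 309 without the 8 arrays of slide 1 (29 members among them). It was 49 to 184 without 1 Group D array. With scanner intensities it was 37 after quantile normalization (33 members among them), 54 after scaling to the 75th percentile (29) and 38 after normexp (30). Without slide 1 all 40 members still had every Group D array above the others, as they must with fewer arrays. Members not among the 309 missed only the condition on Group A. With slide means removed, 28 of the 40 had every Group D array above the others.

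For Groups B, C, E and F against Group A, members called were 2, 0, 0 and 0 with the deposited values, 0, 1, 0 and 0 with scaling to the 75th percentile, and 2, 0, 0 and 0 with normexp. They were 9, 2, 6 and 2 with dim probes left out, a filter that all members pass through Group D and under which 2.92%, 1.26%, 1.67% and 0.604% of the remaining probes were called higher, 5, 1, 0 and 0 with slide as a block, and 0 in each with the methods' t-test. Without slide 1 Group B gave 0 and Group E gave 1. Without the 4 Group D arrays all 4 comparisons gave 0, against 4, 1, 0 and 1 with them, and the mean gave 6. The mean of the 4 groups gave 1 with the deposited values, 2 with the 75th percentile, 1 with normexp and 2 without slide 1. With dim probes left out it gave 11, against 4.36% of the remaining probes. The F-test called 4 with dim probes left out, 1 with slide as a block and 1 without slide 1. Members with an unadjusted p below 0.05 numbered 17 for Group E and 14 for Group F by the methods' t-test, and 15 for Group F without slide 1.

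Median differences from Group A were smaller on scales that compress dim signals. They were 0.46, 0.39 and 0.30 for Groups B, C and F and 0.39 for the mean with the deposited values, and 0.42, 0.36, 0.34 and 0.27 for Groups B, C, E and F and 0.35 for the mean with normexp. Scaling to the 75th percentile moved the median of all probes for the mean of the 4 groups by -0.24 log2, while that of the members was 0.74.

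Leaving out 1 array at a time gave 0 to 8 calls for Group B, 0 to 2 for C, 0 to 6 for E, 0 to 2 for F, 1 to 10 for the mean and 0 to 4 for the F-test. For Group B the count was 8 without A1 (Group A replicate 1, and so on), 7 without E2, 2 without C1, C2, D2 or D3, 1 without A2, and 0 without A3, B1, B2 or B4. For Group C it was 2 without A1 and 0 without A2, A3, B4, any Group C array, E4 or F3. For Group E it was 6 without E2, 2 without A4 and 1 without A1, A2 or F2. For Group F it was 2 without A4 or E2 and 0 without A1, A2, A3, C4, F1, F2 or F3. The mean gave 1 without A3 and 4 without A2 or A4. The F-test gave 4 without E2 and 1 without A4, C1 or E3.

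Of the named members, SBRGG_32270 turned from -0.25 log2 to 0.24 without slide 1, to 0.081 without A2 and to 0.01 without A3 (-0.92 to 0.081 over single arrays). SBRGG_15220 no longer passed with the 75th percentile (adjusted p 0.054), normexp (0.054), without slide 1 (0.084), without A2 (0.063) or without A3 (0.097). It passed the adjusted p but not 2-fold with the deposited values (0.63 log2), and normexp gave 0.56 log2. SBRGG_11453 passed the adjusted p, below a 2-fold change, with the deposited values (0.033), normexp (0.036), dim probes left out (0.028), replicate number as a block (0.040), without A4 (0.0083) or without E2 (0.017), and had adjusted p 0.62 without slide 1 (0.27 log2) and 0.17 without A2 (0.39 log2). SBRGG_19207 ranged over 0.040 to 0.12 log2 without 1 array. The causes were not tested.

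With replicate number as a block the calls were 4, 1, 0 and 1 for Groups B, C, E and F, 8 for the mean and 0 for the F-test, as without it. The labels do not say whether the numbers pair fish, and these data do not settle it. Deviations of same-numbered arrays had a median correlation of 0.20, with a lowest of -0.43. Of the 24 arrays, 16 correlated best with their own number, a hint from the data only. Number and slide largely coincided, with 44 of the 60 same-numbered pairs on 1 slide. On the same slide the median was 0.24 for same-numbered arrays and 0.17 for others. For same-numbered arrays on different slides the median was -0.10.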

Other observations

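SBRGG_06061 (probe CUST_5522_PI428621111), singled out after its values were seen, had the widest spread in Group D, with an SD of 1.67 log2. It read 6.98, 7.12, 10.42 and 7.17 on the Group D arrays, against 6.13 to 6.96 on the other 20, of which 2 were well above background. Its only spot carried no outlier mark on the bright array. The group mean of this member thus rests on replicate 3, while its place among the members rests on the other 3 arrays.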
